A study of Mus musculus with 8 samples.

Results

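The 40 genes described here are the glycolytic enzymes, the transporters and kinases that feed and steer glycolysis, and the hypoxia-inducible factor (HIF) genes with a set of well-known HIF targets. They were chosen by gene symbol, and all 40 were found among the 24346 genes listed for each library, with Ero1l under that symbol. They were described in 4 groups by role, namely 16 glycolytic enzymes, 7 transporters and enzyme regulators, 5 HIF subunits and prolyl hydroxylases, and 12 other HIF targets. RNA was measured in primary cultures of adipose-derived stem cells (ADSCs) from gonadal fat of young adult male, wild-type BALB/c mice, and the labels name no difference between the groups other than the culture. The 4 libraries of the 2D group came from ADSCs of mice 2, 3, 4 and 5 grown as a conventional monolayer. The 4 libraries of the 3D group came from ADSCs of mice 1, 4, 5 and 7 grown as organoids in Matrigel, a gel of basement membrane proteins. The study also used media conditioned with Wnt3a and R-Spondin1 for 3D cultures, and the sources used here do not say which medium or passage gave each sequenced library. Mice 4 and 5 gave 1 library of each kind.

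Glycolysis splits glucose into pyruvate in the cytosol, and lactate dehydrogenase turns pyruvate into lactate when it is not burned in the mitochondria. HIF is a pair of proteins, an oxygen-sensitive alpha subunit (encoded by Hif1a or Epas1) and a constant partner (Arnt). When oxygen is plentiful, prolyl hydroxylases of the Egln family mark the alpha subunit for destruction, and when oxygen falls HIF binds a short DNA element beside many glycolytic genes and raises their transcription. That control acts on the protein, so the RNA of Hif1a does not report HIF activity.

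The labelled cell type, mesenchymal stem cells, was checked against marker genes. The values below are FPKM (fragments scaled to transcript length and to the size of the library) after quantile normalization, which gives every library the same distribution of values. Of 12 stromal cell markers, 11 were lower in 3D, with a summed level of 2098 to 4530 FPKM in 2D and 4.78 to 8.71 FPKM in 3D, and Col1a1, Col1a2, Pdgfrb and Dcn lay near 0 in 3D. Of 14 epithelial cell markers, 13 were higher in 3D, with a summed level of 32.0 to 694 FPKM in 2D and 2750 to 3218 FPKM in 3D, so the 3D libraries went against their label and are named here by culture only. Within 2D, the sum was 176 FPKM for mouse 3 and 694 FPKM for mouse 4, mostly through Krt8 and Krt18, against at most 32.1 FPKM in the other two. The 6 endothelial markers summed to at most 6.82 FPKM and none passed the test. Among 6 macrophage markers Cd68 was higher in 3D, while Adgre1 and Ptprc lay near 0 in both groups. Csf1r was at 0.264 to 7.65 FPKM in 3D and at most 1.44 FPKM in 2D, and Lyz2 reached 18.7 FPKM in 2D and was listed at 0 in all 3D libraries, but neither passed the test (limma adjusted p = 0.129 and 0.0894). The 6 summed to 2.07 to 21.5 FPKM in 2D and 6.25 to 42.3 FPKM in 3D. Of the adipocyte markers, Adipoq and Lep were listed at 0 in every library. In bulk RNA, fewer cells of a type and less RNA per cell cannot be told apart, and the part of this change of markers in the differences below was not tested. Depth was estimated from the steps of low values at 14.48 to 17.30 M fragments per library, and 3 fragments on a transcript of 1 kb then correspond to 0.173 to 0.207 FPKM.

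The DNA element that HIF binds has the core letters ACGTG or GCGTG. Both were searched on both strands in the 250 bases upstream of each start site, using RefSeq sequences on GRCm38.p6, for the 35 members that the table of starts held. A gene was counted when the letters stood before any of its listed starts. They did in 32 of 35 members (91.4%), against 11226 of 27025 genes in the table (41.5%) and 5857 of 9448 genes that averaged 1 FPKM or more (62.0%). With only 1 start listed, it was 20 of 23 members (87.0%) and 4399 of 7543 such genes (58.3%), and the median GC content was 60.8% for the members and 60% for the 9448 genes. The letters stood in 11 of 11 members with a window that were higher in 3D, 3 of 3 that were lower and 18 of 21 that did not pass the test. A match is a run of letters and not a shown binding site. The windows of 3 members that rose in 3D and 2 that did not pass the test are printed 5′ to 3′ on the strand of the gene, with the matched letters in capitals, to show that both kinds carried them. A match on the other strand reads CACGT or CACGC here, and CACGTG matches on both strands. They are Egln3 (chr12:54203875-54204124, minus strand, 1 match), Hk2 (chr6:82774455-82774704, minus strand, 2 matches), Ankrd37 (chr8:45999851-46000100, minus strand, 4 matches), Bnip3 (chr7:138909507-138909756, minus strand, 5 matches) and Pgk1 (chrX:106186850-106187099, plus strand, 2 matches).
Egln3: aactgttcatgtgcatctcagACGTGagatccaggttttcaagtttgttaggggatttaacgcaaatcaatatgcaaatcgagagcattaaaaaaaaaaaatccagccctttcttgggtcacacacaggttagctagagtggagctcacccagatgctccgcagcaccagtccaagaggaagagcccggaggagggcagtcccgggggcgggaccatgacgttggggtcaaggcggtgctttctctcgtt
Hk2: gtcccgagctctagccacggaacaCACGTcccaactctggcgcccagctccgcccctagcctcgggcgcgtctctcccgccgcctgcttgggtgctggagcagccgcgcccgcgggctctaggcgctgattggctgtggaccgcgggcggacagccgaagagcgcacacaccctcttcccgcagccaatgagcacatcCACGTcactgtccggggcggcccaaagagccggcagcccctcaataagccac
Ankrd37: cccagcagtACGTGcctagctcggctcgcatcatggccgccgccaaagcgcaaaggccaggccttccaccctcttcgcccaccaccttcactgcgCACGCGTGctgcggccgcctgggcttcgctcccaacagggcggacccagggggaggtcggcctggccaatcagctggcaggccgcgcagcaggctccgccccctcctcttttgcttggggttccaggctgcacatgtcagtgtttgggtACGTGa
Bnip3: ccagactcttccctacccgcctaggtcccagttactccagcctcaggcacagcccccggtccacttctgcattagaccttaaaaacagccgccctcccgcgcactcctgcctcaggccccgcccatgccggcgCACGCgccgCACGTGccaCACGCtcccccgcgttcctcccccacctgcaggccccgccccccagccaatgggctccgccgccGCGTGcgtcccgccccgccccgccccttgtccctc
Pgk1: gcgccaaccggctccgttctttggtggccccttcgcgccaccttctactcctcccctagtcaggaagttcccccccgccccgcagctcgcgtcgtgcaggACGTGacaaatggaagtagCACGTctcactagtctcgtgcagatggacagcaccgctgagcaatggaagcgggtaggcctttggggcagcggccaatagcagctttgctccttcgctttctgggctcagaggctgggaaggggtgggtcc

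Of the 40 members, 13 rose and 4 fell from 2D to 3D culture, and 23 did not pass the test. The test was limma's moderated test on log2(FPKM + 1) with Benjamini-Hochberg adjustment over all genes, at an adjusted p below 0.05. Of all 18862 genes tested, 41.5% passed it, 21.2% higher and 20.3% lower, so the share of members that passed was close to the background. The groups did not overlap in 15 members, with 3D above 2D in 11 and below in 4, against 42.5% of all genes. The median log2 fold change of the members was 0.34, beside 0.00 over all genes. Within both mice that gave a library of each kind, 20 members were higher and 9 lower in 3D. The same count was not made over all genes, so no tilt of the members is read from it. When mouse entered the fit as a block, with 1 residual degree of freedom left, it called 0 of 40 members and 0 of 18862 genes, with 15 members and 5216 genes at an unadjusted p below 0.05. With the mouse as a random effect 17 members were called, and over all genes 3948 were higher and 3779 lower. The fitted correlation within a mouse was -0.044, so this fit is close to the main fit and no separate check of the pairing. Where nothing else is said, 4 values are given in the order of mice 2, 3, 4 and 5 for 2D and mice 1, 4, 5 and 7 for 3D, and fold changes are differences of log2(FPKM + 1), which understate the change of low genes.

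**Figure D1:**
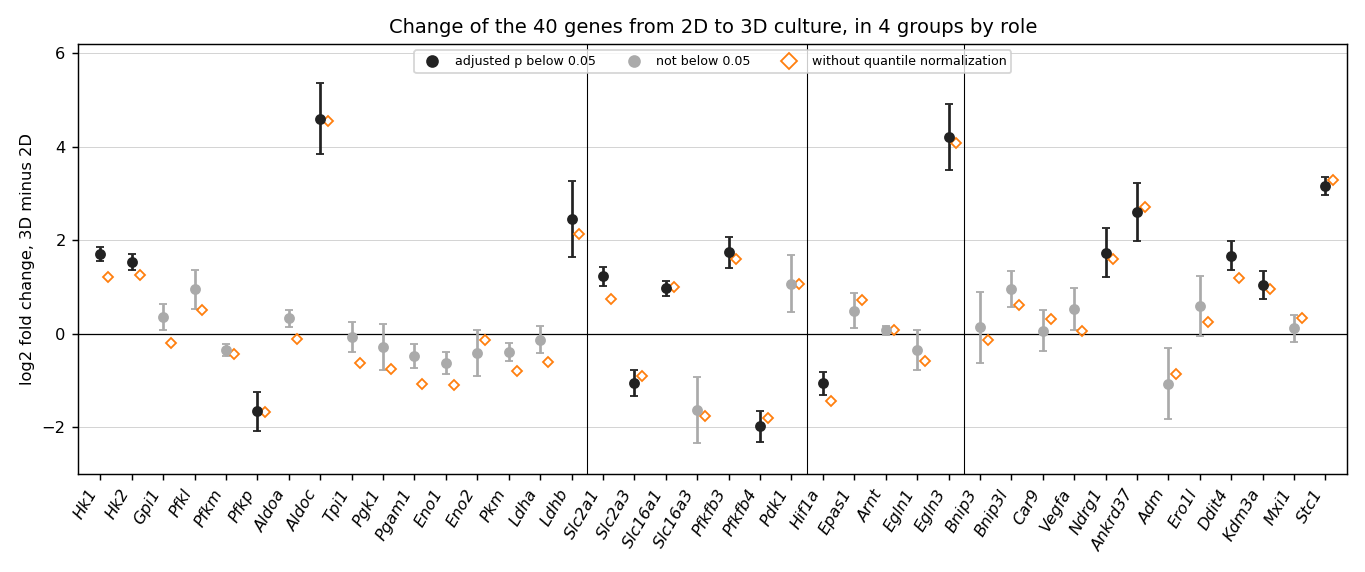
Fitted log2 fold change (3D minus 2D, y axis) of the 40 genes in 4 blocks by role, with filled points for quantile normalized values (bars are standard errors, dark where the adjusted p was below 0.05) and open diamonds for values as deposited. Aldoc at 4.61 and Egln3 at 4.21 stood highest, Pfkfb4 at -1.98 lowest, and most abundant enzymes lay near 0, with diamonds below the points.

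Glycolytic enzymes did not move as a block. Over all genes, 21.2% were higher and 20.3% lower. Of 16 enzymes, Hk1, Hk2, Aldoc and Ldhb rose, Pfkp fell and 11 did not pass the test, with a median log2 fold change of -0.10. This balance depended on scaling. Genes that averaged 100 FPKM or more, 9 members among them, had a median log2 fold change of -0.57 as deposited and -0.05 after quantile normalization (780 genes). On deposited values 3 enzymes were higher and 4 lower, and their median was -0.32. Pfkm, Pgam1 and Eno1 were then also lower, while Ldhb did not pass. For all 40 members the deposited values gave 12 higher and 7 lower. On those values 4279 of all 18862 genes were higher and 4069 lower.

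Both hexokinases, which trap glucose in the cell as its phosphate at the entry of the pathway, rose in 3D. Hk1 (chr10:62268855-62379908, GRCm38), the broadly used form, measured 33.4, 36.8, 32.9 and 46.3 FPKM in 2D and 122, 152, 114 and 109 FPKM in 3D. No 3D library came near the 2D range. The means were 37.3 ± 6.23 and 124 ± 19.3 FPKM (SD, n = 4 each), a log2 fold change of 1.71 (SE 0.14, limma adjusted p = 7.7e-05). Hk2 (chr6:82725025-82774454), the inducible form and a HIF target, measured 22.4, 15.4, 19.7 and 18.6 FPKM in 2D and 51.3, 66.6, 68.5 and 43.2 FPKM in 3D. These groups did not overlap either, and the log2 fold change was 1.53 (SE 0.17, limma adjusted p = 3.5e-04). The window of Hk2 printed above held the element's letters in 2 places.

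Phosphofructokinase, the committed step of glycolysis, is built from subunits of 3 kinds whose use differs between tissues. Only Pfkp passed the test among them. Pfkp, the platelet-type subunit, measured 29.3, 13.1, 19.1 and 32.1 FPKM in 2D and 5.00, 12.9, 7.37 and 3.11 FPKM in 3D. The groups came close, at 13.1 against 12.9 FPKM, but did not overlap, and the log2 fold change was -1.66 (SE 0.42, limma adjusted p = 0.015). Pfkl, the liver-type subunit, measured 39.8, 58.9, 48.0 and 46.1 FPKM in 2D and 173, 134, 79.8 and 40.7 FPKM in 3D. The 3D library of mouse 7 fell among the 2D libraries, and the log2 fold change of 0.95 (SE 0.42) had a limma adjusted p of 0.107. Without that library it was 1.36, with an adjusted p of 0.00899 in limma and a range of 0.00899 to 0.317 over all alternatives. Pfkm, the muscle-type subunit, ranged from 18.3 to 24.3 FPKM in 2D and from 13.9 to 19.8 FPKM in 3D, and its adjusted p in limma was 0.0784. As deposited it was lower in 3D (log2 fold change -0.43, limma adjusted p = 0.0273).

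Aldolase splits the phosphorylated sugar into a pair of triose phosphates. Aldoc (chr11:78322968-78327781), the brain-type aldolase, measured 0.223, 0.425, 0.158 and 0.0739 FPKM in 2D and 135, 33.3, 18.0 and 7.56 FPKM in 3D. Aldoc was close to the limit of detection in 2D, at 0.139, 0.381, 0.177 and 0.0459 FPKM as deposited, and spread 17.9-fold within 3D. At the smallest depth of all libraries, that of a 3D library, 3 fragments on the longest annotated transcript correspond to 0.0744 deposited FPKM. The value is less at the depths of the 2D libraries and more on a shorter transcript. The log2 fold change of 4.61 (SE 0.76, limma adjusted p = 0.00211) was the largest of the 40 members in the fit. Aldoa, the main aldolase, measured 675, 623, 694 and 542 FPKM in 2D and 910.1, 917, 837 and 572 FPKM in 3D. Its groups overlapped through the 3D library of mouse 7, and the log2 fold change was 0.33 (SE 0.19, limma adjusted p = 0.192) against -0.12 as deposited. The annotation holds 2 overlapping or adjoining entries named Aldoa, and how reads were divided between them is not given in the sources used here.

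Of the other 7 enzymes, namely Gpi1, Tpi1, Pgk1, Pgam1, Eno1, Eno2 and Pkm, none passed the test, and all but Eno2 were abundant in both groups. Gpi1, which isomerizes the sugar phosphate, ranged from 123 to 163 FPKM in 2D and 109 to 285 FPKM in 3D. Tpi1, which interconverts the triose phosphates, ranged from 278 to 429 FPKM in 2D and 192 to 520.4 FPKM in 3D. Pgk1, which makes the first ATP of the pathway, was narrow in 2D at 447 to 510.1 FPKM and wide in 3D at 141 to 728 FPKM. Its 3D libraries lay on both sides of the whole 2D range, with mice 1 and 4 above it and mice 5 and 7 below it. Pgam1, the phosphoglycerate mutase, ranged from 363 to 416 FPKM in 2D and 174 to 411 FPKM in 3D. Eno1, the main enolase, measured 535 to 841 FPKM in 2D and 290.5 to 542 FPKM in 3D, with a limma adjusted p of 0.0698. Pgam1 and Eno1 were lower on deposited values, with log2 fold changes of -1.06 (limma adjusted p = 0.0185) and -1.09 (limma adjusted p = 0.0175). A near-identical copy, Eno1b, had 136 deposited FPKM in 3D for mouse 1 but 5.00 to 23.0 FPKM in the other libraries, so the split of reads makes Eno1 uncertain in that library. Eno2, the neuronal enolase, was at or under 5.97 FPKM in every library. Pkm, pyruvate kinase, was the most abundant member, at 1099.9 to 1177 FPKM in 2D and 643 to 1112 FPKM in 3D (limma adjusted p = 0.148).

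Lactate dehydrogenase is a tetramer of A and B chains. Ldha, which favours the making of lactate, measured 682, 488, 478 and 552 FPKM in 2D and 706, 635, 478 and 292 FPKM in 3D. The 3D libraries enclosed the 2D range, with mouse 1 above it and mouse 7 below it, and the log2 fold change was -0.12 (SE 0.28, limma adjusted p = 0.749). Ldhb, which favours the use of lactate, measured 8.14, 25.5, 128 and 8.39 FPKM in 2D and 113, 100.4, 159.7 and 143 FPKM in 3D. The 2D library of mouse 4 lay inside the 3D range. The log2 fold change of 2.46 (SE 0.81) passed at a limma adjusted p of 0.0417, over a range of 0.000106 to 0.495 in the alternatives. The call was lost when any library other than the 2D library of mouse 4 was left out, with an adjusted p of 0.0702 to 0.0986 in limma.

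**Figure D2:**
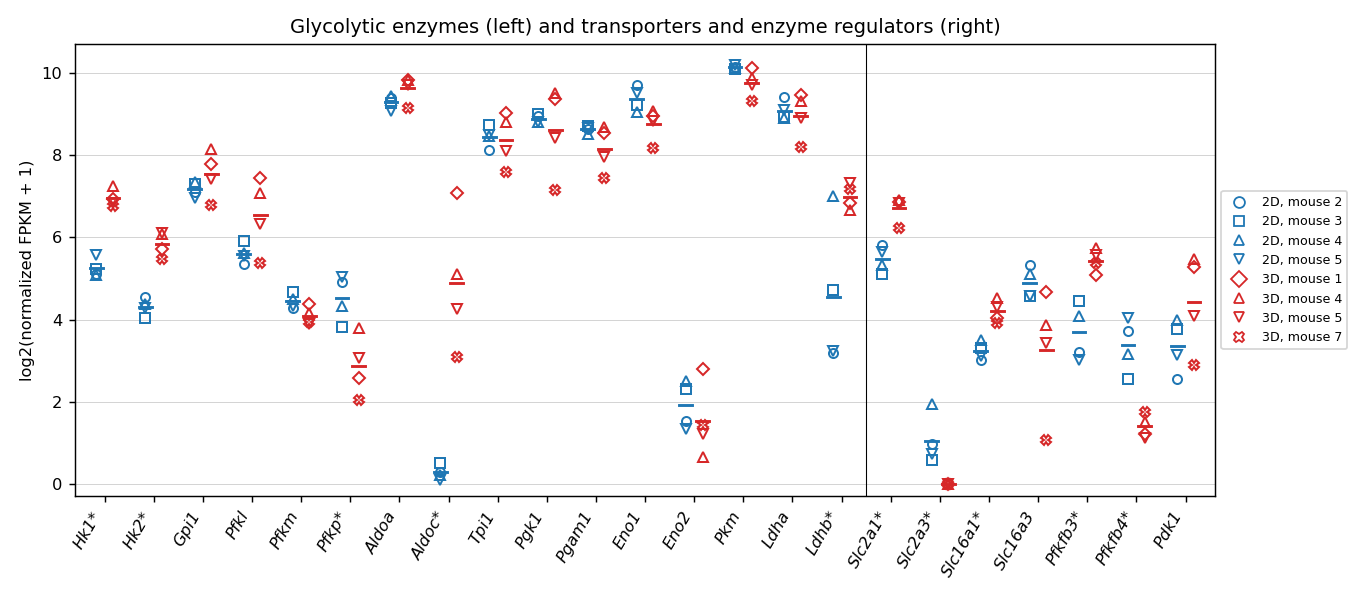
Level of each enzyme (left) and each transporter or enzyme regulator (right) in the 8 libraries, as log2(normalized FPKM + 1), with 2D in blue, 3D in red, a symbol for each mouse and a bar at the group mean. Stars mark an adjusted p below 0.05. The 3D points of Hk1, Hk2, Aldoc, Slc2a1, Slc16a1 and Pfkfb3 lie above all 2D points, and among the 4 red points the cross of mouse 7 is lowest in 13 of 16 enzymes.

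Among transporters and enzyme regulators, 3 of 7 rose and 2 fell, with a median log2 fold change of 0.97. Over all genes, 21.2% were higher and 20.3% lower. The fit with the mouse as a block called none of them. Slc2a1, the glucose transporter GLUT1, measured 55.0, 33.6, 39.2 and 49.1 FPKM in 2D and 115, 119, 113 and 73.7 FPKM in 3D. All 3D libraries were above all 2D libraries, with that of mouse 7 set apart below the other 3D libraries, and the log2 fold change was 1.23 (SE 0.20, limma adjusted p = 0.00224). Slc2a3, the high-affinity transporter GLUT3, measured 0.967, 0.492, 2.82 and 0.656 FPKM in 2D and was listed at 0 in all 4 3D libraries, where 3 fragments on its longest annotated transcript correspond to up to 0.0331 FPKM, and to more on a shorter one. It was lower in 3D (limma adjusted p = 0.0164).

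Lactate leaves or enters cells through the monocarboxylate transporters. Slc16a1, which encodes MCT1, measured 7.06, 8.86, 10.3 and 7.66 FPKM in 2D and 15.5, 22.2, 18.9 and 14.1 FPKM in 3D. The groups did not overlap, and the log2 fold change was 0.97 (SE 0.17, limma adjusted p = 0.00277). Slc16a3, which encodes MCT4, the exporter typical of glycolytic cells, measured 39.3, 22.7, 33.5 and 22.6 FPKM in 2D and 24.5, 13.5, 9.84 and 1.09 FPKM in 3D. The 3D library of mouse 1 overlapped with 2D and that of mouse 7 was far below the others, and the log2 fold change of -1.63 (SE 0.71) had a limma adjusted p of 0.104. Without the 3D library of mouse 1 it was -2.14, with an adjusted p of 0.0418 in limma and a range of 0.0418 to 0.240 over all alternatives.

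The bifunctional enzymes of the Pfkfb family make and remove the sugar phosphate that activates phosphofructokinase, and 2 of them moved in opposite directions. Pfkfb3, the form with the strongest kinase side, measured 8.31, 21.0, 15.9 and 7.13 FPKM in 2D and 32.7, 52.4, 46.4 and 40.5 FPKM in 3D, a log2 fold change of 1.74 (SE 0.33, limma adjusted p = 0.00435). Pfkfb4 measured 12.3, 4.88, 8.02 and 15.5 FPKM in 2D and 1.32, 1.86, 1.17 and 2.36 FPKM in 3D, a log2 fold change of -1.98 (SE 0.33, limma adjusted p = 0.00244). Neither gene's groups overlapped. Within 2D both genes split the libraries in the same way but in opposite order, with mice 3 and 4 above mice 2 and 5 for Pfkfb3 and below them for Pfkfb4. Pdk1, the kinase that keeps pyruvate out of the mitochondrial dehydrogenase, ranged from 4.87 to 14.9 FPKM in 2D and 6.46 to 43.7 FPKM in 3D, with a limma adjusted p of 0.196. Without the 3D library of mouse 7 its log2 fold change went from 1.08 to 1.61, with an adjusted p of 0.0359 in limma and a range of 0.0359 to 0.385 over all alternatives.

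Shares within a family do not depend on a factor common to a library, so they were computed from the deposited FPKM, which is per length, and are given without a test. Pfkl made up 46.8%, 62.0%, 55.8% and 49.1% of phosphofructokinase RNA in 2D and 84.7%, 78.8%, 74.8% and 67.1% in 3D. Pfkp made up 33.4%, 13.1%, 20.5% and 32.6% in 2D and 3.49%, 9.44%, 9.06% and 6.2% in 3D. Neither range overlapped between groups, whereas that of Pfkm did, at 18.3% to 24.9% and 11.8% to 26.7%. Slc16a1 was the smaller part of the monocarboxylate transporter pair in 2D, at 12.4%, 27.0%, 21.6% and 22.8%, and took 39.9%, 60.9%, 64.2% and 92.6% in 3D, without overlap. Aldoc was at most 0.0598% of aldolase RNA in 2D and between 1.88% and 12.2% in 3D. The share of Hk2 in hexokinase RNA, at 26.4% to 39.2% in 2D and 30.5% to 38.8% in 3D, overlapped between the groups although both hexokinases rose. Ldhb took 0.851%, 4.92%, 21.0% and 1.12% of lactate dehydrogenase RNA in 2D and 13.2%, 11.7%, 25.6% and 33.0% in 3D, which overlapped through the 2D library of mouse 4. It was the minor form in every library. The share of Bnip3l in the Bnip3 and Bnip3l pair also overlapped.

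**Figure D3:**
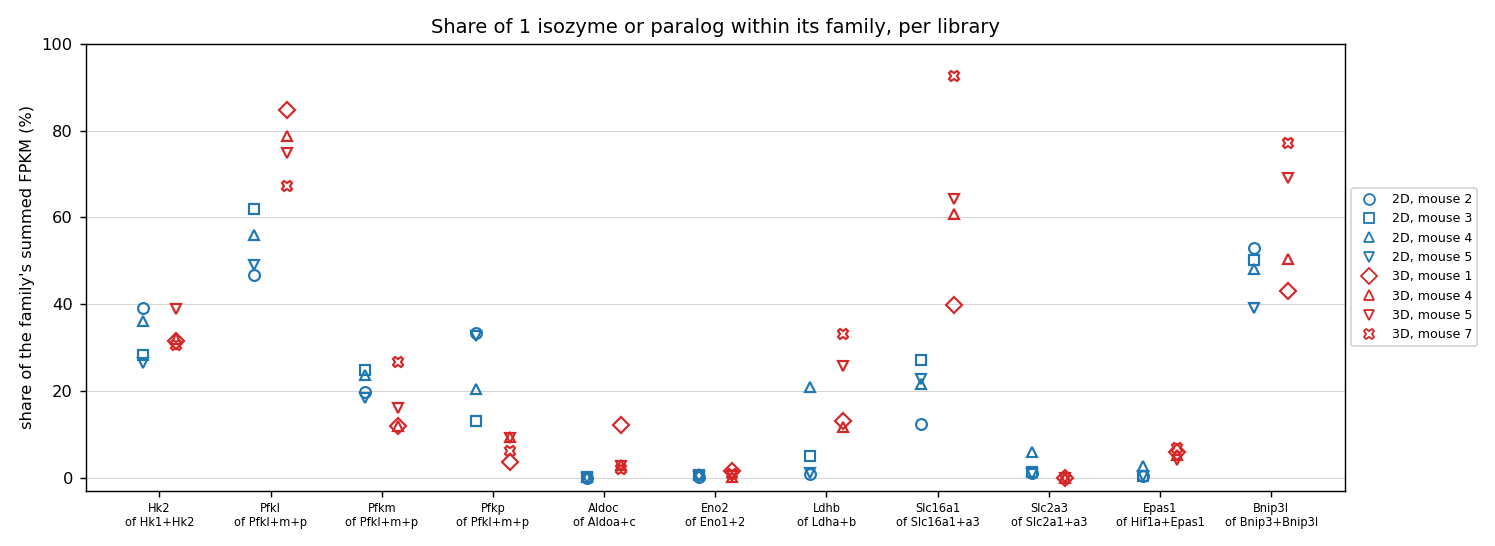
Share (y axis, percent of the summed deposited FPKM of the family) of 1 isozyme or paralog in each library, 2D in blue and 3D in red, with a symbol for each mouse. In 3D, Pfkl lies above and Pfkp below all 2D libraries, Slc16a1 spans 39.9% to 92.6% in 3D against 12.4% to 27.0% in 2D, and the share of Hk2 overlaps.

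Of the 5 HIF subunits and prolyl hydroxylases, Egln3 rose, Hif1a fell and 3 did not pass the test, beside 21.2% of all genes higher and 20.3% lower. Hif1a (chr12:73901375-73947530), the alpha subunit of HIF-1, measured 54.7, 107, 93.4 and 67.8 FPKM in 2D and 49.8, 37.2, 35.5 and 28.1 FPKM in 3D. All 3D libraries lay below all 2D libraries, by a small gap between the 2D library of mouse 2 and the 3D library of mouse 1. The means were 80.7 ± 23.8 and 37.7 ± 9.03 FPKM (SD, n = 4 each), a log2 fold change of -1.06 (SE 0.25, limma adjusted p = 0.0103). Without the 2D libraries of mice 3 and 4, which were high in Krt8 and Krt18, the log2 fold change was -0.70, with an adjusted p of 0.0554 in limma and a range of 0.00135 to 0.129 over all alternatives. Epas1, the alpha subunit of HIF-2, measured 0.318, 0.637, 3.22 and 0.357 FPKM in 2D and 2.15, 1.55, 1.12 and 1.84 FPKM in 3D. The 2D library of mouse 4 was above all others, and the log2 fold change of 0.49 (SE 0.38) had a limma adjusted p of 0.338. Without that library it was 0.89, with an adjusted p of 0.00622 in limma and a range of 0.00622 to 0.999 over all alternatives. As a share of both alpha subunits, Epas1 made up between 0.270% and 2.78% in 2D and between 3.97% and 6.78% in 3D on deposited values, without overlap, but on quantile normalized values the 2D library of mouse 4 reached 3.34%, above the lowest 3D value of 3.06%. Arnt, the constant partner, was level at 11.8 to 14.1 FPKM in 2D and 12.2 to 14.5 FPKM in 3D (log2 fold change 0.08, SE 0.10, limma adjusted p = 0.538).

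The prolyl hydroxylases differed from each other. Egln3 (chr12:54178981-54203860), which encodes PHD3 and is itself induced by HIF, measured 3.09, 5.33, 7.13 and 4.55 FPKM in 2D and 262, 197, 107 and 23.1 FPKM in 3D. The lowest 3D library, that of mouse 7, was still above the highest 2D library. The log2 fold change was 4.21 (SE 0.71, limma adjusted p = 0.00234), and it was 4.6 within mouse 4 and 4.28 within mouse 5. Egln1, which encodes PHD2, the main oxygen sensor of most cells, was narrow in 2D at 31.1 to 37.7 FPKM and ran from 13.1 to 58.9 FPKM in 3D (log2 fold change -0.35, SE 0.42, limma adjusted p = 0.533).

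Of the 12 other HIF targets, 5 rose, none fell and 7 did not pass the test, with a median log2 fold change of 0.77 (0.47 as deposited). At the same threshold 21.2% of all genes were higher and 20.3% lower. At an unadjusted limma p below 0.05, 0 of these 12 were lower. Over all 18862 genes 9259 passed at that level, but this counts rises and falls together and is no background for falls alone. The lack of falls belongs to this list, since of 31 further HIF targets, described below, 4 were higher and 10 lower at the adjusted threshold. The fit with the mouse as a block called none. Stc1 (chr14:69029238-69041804), a secreted glycoprotein that acts on calcium and phosphate transport, measured 0.80, 0.402, 0.773 and 0.713 FPKM in 2D and 13, 10.1, 15.2 and 18.5 FPKM in 3D. It had the smallest adjusted p of the members, with a log2 fold change of 3.16 (SE 0.20, limma adjusted p = 2.0e-05), and the 3D library of mouse 7 held its highest value. Ankrd37, an ankyrin repeat protein, measured 2.62, 1.91, 1.38 and 2.54 FPKM in 2D and 35.9, 46.9, 8.80 and 6.13 FPKM in 3D. Its groups did not overlap, mice 1 and 4 were far above mice 5 and 7 in 3D, and the log2 fold change was 2.61 (SE 0.62, limma adjusted p = 0.0118). Without the 2D libraries of mice 3 and 4 the adjusted p was 0.0751 in limma, in a range of 0.00534 to 0.249 over all alternatives.

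Ddit4, the stress protein REDD1 that restrains mTORC1, measured 53.4, 67.7, 37.5 and 54.7 FPKM in 2D and 177, 297, 126 and 121 FPKM in 3D, a log2 fold change of 1.67 (SE 0.31, limma adjusted p = 0.00374) with no overlap. Ndrg1, a stress-responsive protein of differentiating epithelia, measured 14.3, 16.7, 6.43 and 9.10 FPKM in 2D and 107, 35.9, 29.5 and 19.6 FPKM in 3D. The groups stood apart by a short gap, and the log2 fold change was 1.74 (SE 0.52, limma adjusted p = 0.0296). The call of Ndrg1 was lost without the 2D library of mouse 4 or 5 or the 3D library of mouse 4, with an adjusted p of 0.0579 to 0.0707 in limma, in a range of 0.0183 to 0.128 over all alternatives. Kdm3a, a histone demethylase, measured 9.42, 17.2, 10.9 and 11.9 FPKM in 2D and 36.8, 35.0, 21.7 and 15.6 FPKM in 3D. The 3D library of mouse 7 lay below the 2D library of mouse 3, and the log2 fold change was 1.04 (SE 0.30, limma adjusted p = 0.0256). Leaving out the 2D library of mouse 2, 4 or 5 or the 3D library of mouse 1 or 4 ended the call of Kdm3a, with an adjusted p of 0.0564 to 0.0674 in limma, in a range of 0.00921 to 0.182 over all alternatives.

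The remaining 7 targets overlapped between groups. Vegfa, the angiogenic growth factor, measured 102, 82.5, 53.8 and 71.0 FPKM in 2D and 149.9, 229, 82.2 and 51.0 FPKM in 3D. Mice 1 and 4 were above all 2D libraries, mouse 7 was below them, and the log2 fold change was 0.53 (SE 0.45, limma adjusted p = 0.387). Bnip3, which drives removal of mitochondria, ranged from 22.9 to 52.0 FPKM in 2D and from 9.27 to 136 FPKM in 3D, so that the 3D libraries enclosed the 2D range (limma adjusted p = 0.895). Ero1l, an oxidase of disulfide bond formation, did the same, at 33.6 to 39.7 FPKM in 2D and 15.2 to 142 FPKM in 3D (limma adjusted p = 0.489). Bnip3l, the paralog of Bnip3, ranged from 19.1 to 48.7 FPKM in 2D and 35.6 to 103 FPKM in 3D, with a limma adjusted p of 0.0839. Without the 3D library of mouse 7 its log2 fold change went from 0.96 to 1.23, with an adjusted p of 0.0376 in limma and a range of 0.0370 to 0.269 over all alternatives. Mxi1, an antagonist of Myc, was between 3.37 and 8.98 FPKM in every library. Car9, the carbonic anhydrase widely used as a hypoxia marker, was low in both groups, at 0.231 to 1.66 FPKM in 2D and 0.0739 to 2.56 FPKM in 3D. Adm, the vasodilator peptide adrenomedullin, ranged from 2.57 to 26.1 FPKM in 2D, highest in mouse 4, and from 0.109 to 4.72 FPKM in 3D.

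**Figure D4:**
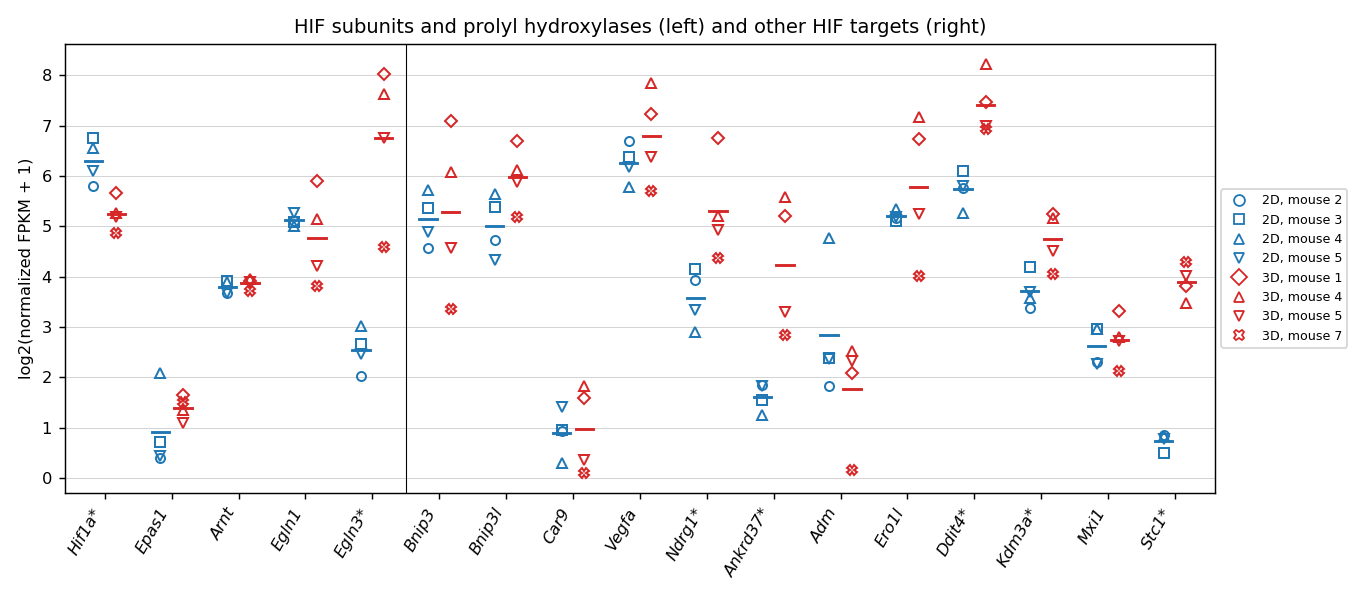
Level of the HIF subunits and prolyl hydroxylases (left) and the other HIF targets (right) in the 8 libraries, as log2(normalized FPKM + 1), with 2D in blue, 3D in red, a symbol for each mouse and a bar at the group mean. Stars mark an adjusted p below 0.05. The 3D points of Egln3, Ankrd37 and Stc1 lie above all 2D points and those of Hif1a below them, while the 3D points of Bnip3, Vegfa and Ero1l lie on both sides of the 2D points.

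Enzymes and other HIF targets varied more between the 3D libraries than between the 2D libraries. This comparison and the one of library order were chosen after the values were seen and carry no test. The SD of log2 values was larger in 3D than in 2D for 31 of 40 members (77.5%), against 48.3% of 12577 genes that averaged 1 FPKM or more. It was larger for 14 of 16 enzymes, with a median SD of 0.22 in 2D and 0.57 in 3D, and for 11 of 12 other HIF targets, with a median SD of 0.38 and 0.91. The other two groups went the other way by median SD, at 0.61 in 2D and 0.29 in 3D for transporters and regulators (larger in 3D for 4 of 7) and 0.41 and 0.33 for HIF subunits and hydroxylases (2 of 5). Over all 12577 genes the medians were 0.23 and 0.22. The 2D range lay wholly inside the 3D range in 11 of 40 members (27.5%), against 6.73% of these genes. The SDs are of log2(FPKM + 1), which shrinks the spread of genes near 0, such as Aldoc in 2D (SD 0.17 over a 5.75-fold range).

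The 3D libraries also kept much the same order from gene to gene. Of the 39 members above 0 in 3D, the library of mouse 7 was lowest in 32 (82.1%), against 21.4% of 12073 genes, and the highest was that of mouse 4 in 18 and that of mouse 1 in 17. It was lowest in 13 of 16 enzymes, 4 of 6 transporters and regulators, 4 of 5 HIF genes and 11 of 12 other HIF targets. In that last group the median deviation from the 3D mean, in log2 units, was 0.60 for mouse 1, 0.77 for mouse 4, -0.40 for mouse 5 and -0.91 for mouse 7. The enzymes gave 0.32, 0.31, -0.11 and -0.64. Summed over the 16 enzymes, 3D levels were 5628, 5426, 4106 and 2776 FPKM, on both sides of the 2D sums of 4798, 4501, 4419 and 4516 FPKM. On deposited values the sums were 4762, 5291, 3151 and 2134 FPKM in 3D and 4634 to 6076 FPKM in 2D, so that no 3D library exceeded the 2D range. The deposited values also gave 32 of 39 members lowest in mouse 7. Within 2D no library was lowest in more than 13 of 39 members after quantile normalization, or in more than 14 as deposited. The depth of the library of mouse 7 was 15.56 M fragments, the highest of the 3D libraries. Among 14 epithelial markers in 3D, the library of mouse 7 was lowest in 5 (35.7%) and that of mouse 1 in 8 (57.1%). Over 12073 genes these shares were 21.4% and 36.0%. The part of depth or cell content in the order of the libraries was not tested. Without the library of mouse 7, Gpi1 (log2 fold change 0.61, limma adjusted p = 0.0455) and Aldoa (0.48, limma adjusted p = 0.0377) were also called higher. Pfkl, Pdk1 and Bnip3l, given above, were called higher in that fit too. Over all alternatives the limma adjusted p ranged from 0.0455 to 0.658 for Gpi1 and from 0.0377 to 0.750 for Aldoa. As deposited, with all libraries, the log2 fold changes were -0.20 for Gpi1 and -0.12 for Aldoa. Because that library was the lowest in most members, leaving it out raises their 3D means by design. These calls are therefore no separate support for a rise. The short label of the 3D library of mouse 1 ends in the number 13 where those of the other 3D libraries name the culture, and what it stands for is not given in the sources used here, although the title places it in 3D. The 3D libraries came from 4 different mice, and differences in passage, organoid size or time of harvest between them are not given in the sources used here.

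**Figure D5:**
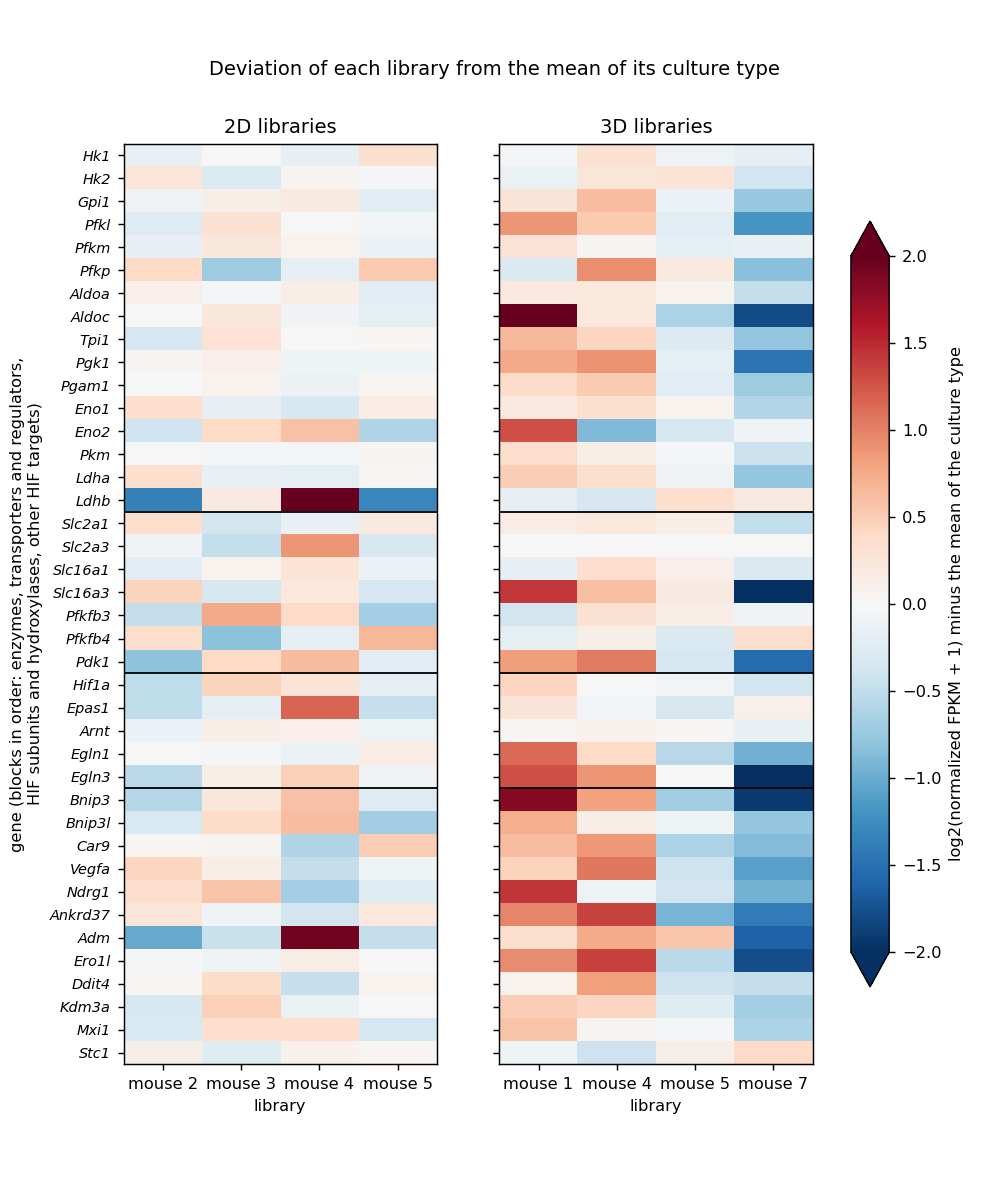
Deviation of each library from the mean of its own culture type, in log2(normalized FPKM + 1), for the 40 genes in 4 blocks, with red above and blue below the mean and colours limited to 2 units. In 3D, mice 1 and 4 are mostly red and mouse 7 mostly blue, whereas the 2D panel shows no library that is low throughout.

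Genes of the same pathways outside the 40 were counted against the same background of 21.2% of all genes higher and 20.3% lower. Of 32 further genes of glucose and pyruvate use, 9 were higher, 8 lower and 15 did not pass. Gapdh, the glycolytic dehydrogenase that is often used as a loading control, measured 1123, 1266, 1320 and 1229 FPKM in 2D and 999, 872, 801 and 635 FPKM in 3D. It was lower in every 3D library than in any 2D library, with a log2 fold change of -0.59 (SE 0.17, limma adjusted p = 0.028). The largest rises were in Ldhd, the mitochondrial dehydrogenase of D-lactate (log2 fold change 3.59), Pfkfb2 (1.40) and Pklr, the liver and red cell pyruvate kinase, which was at 0 in each of the 2D libraries and at 0.684 to 3.47 FPKM in 3D. The largest falls were in Pdk4, a kinase of pyruvate dehydrogenase (-3.17), Eno3, the muscle enolase (-3.01), and Slc2a10, a facilitative transporter (-2.91). The library of mouse 7 was lowest in 5 of 18 of these genes.

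Of 12 further genes of the HIF pathway, 3 were higher and 2 lower. The coactivators Ep300 (log2 fold change 0.72) and Crebbp (0.56) and the hydroxylase Egln2 (0.46) rose, and the ubiquitin ligase genes Siah1a (-0.43) and Cul2 (-0.39) fell. Of 31 further HIF targets, 4 were higher, 10 lower and 17 did not pass. Selenbp1 (log2 fold change 2.50), the circadian repressor Bhlhe41 (2.48) and the histone demethylases Kdm4b (0.68) and Kdm4c (0.68) rose. Lox, the collagen crosslinking enzyme (-9.40), and Angptl4, a regulator of lipoprotein lipase (-5.42), were among the largest falls. The library of mouse 7 was lowest in 18 of 25 of them in 3D.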

How the data were processed

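Total RNA of 8 ADSC cultures was sequenced from directional libraries. Per the study's methods and the submitters' processing notes, the authors trimmed the reads, mapped them to mm10 with TopHat and deposited FPKM values per gene from Cufflinks, 1 library per file. The gene annotation and the strand setting are not given in the sources used here. The deposited FPKM values are not quantile normalized, since their upper quartiles differ between libraries (10.7 to 11.4 FPKM), although the study's methods name that step. No counts were given. Depth was estimated from the steps of low values among 875 genes whose only transcript is 3000 nt or longer in GENCODE M21 (GRCm38, the mm10 assembly). Only 110 to 135 values per library were low enough to be used. Of these, 69.2% to 82.1% lay within 0.15 of a whole fragment, which was too few for a count test. The same values set the depth, so this share is no separate check of it. Intervals from such depths would cover counting error only, and none are given.

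Genes at 0 in every library (5484 of 24346) were left out. The other 18862 were quantile normalized, converted to log2(FPKM + 1) and fitted with limma 3.58.1 in R 4.3.3, with an intensity trend and no covariates, for 3D minus 2D. Tables were made with Python 3.11.15 and pandas 2.3.3. An adjusted p (Benjamini-Hochberg over all genes tested) below 0.05 was the threshold. Replicates are cultures of separate mice. The members, the gene lists and the tests were chosen with earlier results of these data known. Values in every library are given for members past the threshold with an absolute log2 fold change of at least 1, for Hif1a, Epas1, Vegfa, Slc2a1 and Ldha, and for families whose shares did not overlap between cultures. Pfkm is summarized by its range. From the further lists, Gapdh and the genes past the threshold with the 3 largest rises and falls are named. A gene that this rule covers is not reported here.

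Mice 4 and 5 pair the groups by animal. Over 12577 genes, both libraries of an animal deviated from their group means with a correlation of -0.05 (mouse 4) and -0.11 (mouse 5). The alternatives were the deposited values, size factors on FPKM, no intensity trend, a filter at a mean of 1 FPKM, a smaller pseudocount (0.1), mouse as a fixed block or a random term, the libraries of mice 4 and 5 alone, and leaving out every library in turn. Leaving out genes under 300 nt, leaving out the 2D libraries of mice 3 and 4, and ranks on deposited values were added after seeing the data. When tested on simulated data (18862 genes, 200 changed, 4 libraries a group), the fit called 48% of changes of 1 and 85% of changes of 2 log2 units. It also called 9 unchanged genes, and the block fit called 0 of the changed genes. The changed genes were drawn only from those above a low mean level, and no mouse effect was simulated. In the real data 41.5% of genes passed, so these rates do not give the power or the false calls of the real contrast. Promoter windows were read from RefSeq starts on GRCm38.p6, where 35 of 40 members matched (Slc2a3, Stc1, Epas1, Bnip3l and Ndrg1 did not).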

Additional observations from a re-analysis of the deposited data

Results flagged for a closer look

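Of 79 groups of 4 libraries checked by Dixon's test for the 40 genes, 1 held a library that stood apart, where chance alone gives about 1 in 20. It was Slc2a1 in 3D, which measured 73.7 FPKM in the library of mouse 7 and 113 to 119 FPKM in the other 3D libraries, a gap of 0.886 of the whole range. That library was still above every 2D library, and without it the log2 fold change of Slc2a1 was 1.41.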

How the results depend on the processing

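No called member reversed in direction under any alternative run, and 14 of the 17 kept their call with each library left out in turn, the exceptions being Ldhb, Ndrg1 and Kdm3a. With the mouse as a replicate block, every count of calls was 0 (each list and all genes, higher and lower), with 1 residual degree of freedom. Enzymes called lower numbered 1, but 4 as deposited, 4 with size factors, 2 at a mean of at least 1 FPKM, 0 with mice 4 and 5 only and 1 to 2 with each library left out (2 without the 3D library of mouse 1). Transporters and regulators called lower went from 2 to 1 at a mean of at least 1 FPKM, where Slc2a3 is not tested, and to 1 with mice 4 and 5 only. HIF genes called higher numbered 1 to 2 with each library left out (2 without the 2D library of mouse 4). Without both 2D libraries high in Krt8 and Krt18, 2 HIF genes were higher and 0 lower. Other HIF targets called higher numbered 5, but 2 with mice 4 and 5 only and 3 to 6 with each library left out (3 without the 2D library of mouse 4 or 5 or the 3D library of mouse 4). Over all genes, mice 4 and 5 only gave 1788 higher and 1432 lower, with fewer libraries. Reversals were found only in members that were not called. As deposited and with size factors, log2 fold changes were -0.20 and -0.21 for Gpi1, -0.12 and -0.12 for Aldoa, and -0.12 and -0.13 for Bnip3. With the block and with mice 4 and 5 only they were 0.16 and 0.15 for Pgk1, 0.10 and 0.11 for Ldha, and -0.043 and -0.036 for Epas1, and Tpi1 was 0.0099 with mice 4 and 5 only. Leaving out short genes gave 0.030 for Tpi1 and 0.0075 for Ldha, and a pseudocount of 0.1 gave -0.19 for Car9. Without both 2D libraries high in Krt8 and Krt18, Tpi1 was 0.086, Eno2 0.089 and Car9 -0.21. With each library left out, Tpi1 ranged from -0.29 to 0.19, Pgk1 from -0.58 to 0.21, Ldha from -0.28 to 0.14, Bnip3 from -0.48 to 0.79, Car9 from -0.21 to 0.35 and Mxi1 from -0.073 to 0.33. Apart from fewer libraries or genes, the cause of these changes was not tested. Depth limits Slc2a3, Aldoc, Car9 and Adm, which lie within a few fragments of 0 in some libraries.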

Other observations

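The further HIF targets include genes whose proteins modify collagen, which were picked out here after their values were seen. P4ha1 and P4ha2, the alpha subunits of collagen prolyl hydroxylase, averaged 123 ± 13.3 and 67.8 ± 8.0 FPKM in 2D and 34.1 ± 19.1 and 23.1 ± 14.5 FPKM in 3D (SD, n = 4 each). Both fell, with log2 fold changes of -1.99 (limma adjusted p = 0.00458) and -1.72 (limma adjusted p = 0.0133). Plod2, a collagen lysyl hydroxylase, averaged 91.4 ± 30.6 FPKM in 2D and 28.8 ± 17.2 FPKM in 3D and also fell, with a log2 fold change of -1.82 (limma adjusted p = 0.0215). In each of these genes the 3D library of mouse 7 was the lowest. Stromal collagen genes among the cell markers fell in the same contrast, and the part of one in the other was not tested.

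Car12, a carbonic anhydrase and HIF target, spread in 3D from 114 FPKM in mouse 1 through 13.9 FPKM in mouse 4 to 2.28 and 1.73 FPKM in mice 5 and 7, beside 0.467 to 3.01 FPKM in 2D, with a limma adjusted p of 0.147. Edn1, the vasoconstrictor endothelin, ran in the opposite order, at 4.85, 12.4, 27.2 and 32.8 FPKM in 3D and 8.26 to 12.5 FPKM in 2D, with a limma adjusted p of 0.367.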
